A study of Mus musculus with 29 samples.

Results

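The genes described here are 10 receptors with which blood-forming cells find, hold and leave their places in the bone marrow: the chemoattractant receptors Cxcr4 and S1pr1, the integrin subunits Itgb1, Itga4, Itga5, Itga6 and Itgb2, the hyaluronan receptor Cd44, the selectin ligand Selplg and the junctional adhesion molecule Jam3. They were chosen by name, and each matched 1 row of the 30025 genes in the deposited expression table. RNA was sequenced from hematopoietic stem cells (HSC) and multipotent progenitors (MPP) of mutant mice and of their wild-type (WT) littermates. The mutants lack 1 copy of an interval within band A3 of chromosome 5. That interval is syntenic to a segment of human 7q22 that is often deleted in myelodysplastic syndrome. The comparisons ask how these receptors are expressed along the first steps from stem cell to progenitor, and whether the deletion alters them.

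Both genotypes were on the C57BL/6J strain and were 12.42 to 13.85 weeks old. Ages were not balanced: WT mice 1, 2 and 3 but only mouse 1 of the 5A3+/del mice were 13.28 weeks old. The 5A3+/del mice were heterozygous for a germ line deletion, so that every cell of the animal carried it, the marrow environment included. Nothing in these libraries separates an effect within the sorted cells from one of their surroundings. For repopulation, the paper used transplants into WT and 5A3+/del recipients and concluded that the defects of CD150hi HSC lie within the cells. Cells that were c-kit positive, lineage negative and Sca-1 positive, without CD41 or CD48, were sorted by their CD150 protein into CD150hi HSC, CD150lo HSC and a CD150-negative population, called CD150neg MPP here and labelled as HSC by the submitters. CD41 is the product of the integrin gene Itga2b. It and CD48 were part of the gate, and none of the 10 receptors was. Each library came from 1 mouse. Libraries given the same mouse number share an identifier in their descriptions and were taken to come from the same animal. In this way 29 libraries of 10 mice were compared, 5 in each group but the 5A3+/del CD150neg MPP, which had 4. The RNA was amplified before sequencing. In bulk samples of this kind, fewer cells of a type and less RNA per cell cannot be told apart.

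Stem cells are kept in the marrow by chemokine signals and by adhesion. CXCL12 made by stromal and endothelial cells acts on Cxcr4, integrins anchor the cells to fibronectin, laminin and Vcam1 protein, and Cd44 binds hyaluronan, while S1pr1 senses the sphingosine 1-phosphate gradient that draws cells into blood and lymph. Selplg and the leukocyte integrins with the Itgb2 subunit serve rolling and arrest on vessel walls, and Jam3 links cells to Jam2 on their neighbours. Cxcr4 and the pair of Itga4 and Itgb1 are targets of drugs that mobilize stem cells into the blood.

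The libraries held between 21229490 and 38797569 fragments, with a median of 26967107, as recovered from the values. Levels are given as FPKM (fragments scaled to gene length and library size). After quantile normalization over the 29 libraries, the sorting marker Slamf1, which encodes CD150, was at 10.7 to 21.6 FPKM in CD150hi HSC. It was at 0.244 to 2.43 in CD150lo HSC and at 0.0524 to 0.186 in CD150neg MPP. The levels of the other genes in this paragraph are as deposited. The gate genes Kit and Ly6a, which encode c-kit and Sca-1, were at 111 to 203 and at 93 to 239 FPKM. Of the markers of other cell types, B cell genes summed to 6.2 to 32.2 FPKM over 6 genes: Ms4a1 was at 0 in 26 libraries and Pax5 in 15, while Cd79b was above 0 in all, at 5.43 to 31.7, and Ebf1 reached 7.09. T and NK cell genes summed to 1.1 to 6.73 over 6 genes: Cd3e was at 0 in 19 libraries, while Cd4 was above 0 in all, at 0.285 to 4.89, and Klrb1c reached 6.06. Megakaryocyte and platelet genes summed to 26.8 to 60.2. The libraries of WT mouse 3 stood apart in Xist, the RNA of the inactive X chromosome, at 234 to 319 FPKM against 0.0237 to 0.47 in the other 9 mice. Results that rest on that mouse are given with and without it.

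The 250 bases before the annotated start are shown for 3 of the receptors, Cxcr4 as the one that varied most between mice, and Cd44 and Itga5 as the genes with the smallest adjusted p-values in opposite directions between stem cells and progenitors. The RefSeq table (GRCm38.p6) had a promoter entry for 5 of the 10 genes. Capitals mark matches, on either strand, to the GC box GGGCGG, to AGATAA as a GATA motif and to AGGAAG as an ETS motif, with the complement in capitals where the match was on the other strand. The motifs CCAAT and TGTGGT, the second as a RUNX motif, were also searched and were not in these 3 windows. The windows lie at chr1:128592300-128592549, chr2:102901666-102901915 and chr15:103366792-103367041, all on the minus strand, and read 5′ to 3′ as follows.
Cxcr4: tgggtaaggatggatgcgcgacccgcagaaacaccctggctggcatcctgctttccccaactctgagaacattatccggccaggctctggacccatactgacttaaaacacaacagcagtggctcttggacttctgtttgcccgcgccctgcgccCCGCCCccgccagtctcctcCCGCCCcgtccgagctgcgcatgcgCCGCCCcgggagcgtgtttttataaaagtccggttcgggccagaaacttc
Cd44: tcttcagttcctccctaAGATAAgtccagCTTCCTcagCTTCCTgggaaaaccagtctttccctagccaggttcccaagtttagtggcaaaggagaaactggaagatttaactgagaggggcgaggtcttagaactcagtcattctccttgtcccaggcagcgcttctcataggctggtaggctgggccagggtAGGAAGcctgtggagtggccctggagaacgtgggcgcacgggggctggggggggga
Itga5: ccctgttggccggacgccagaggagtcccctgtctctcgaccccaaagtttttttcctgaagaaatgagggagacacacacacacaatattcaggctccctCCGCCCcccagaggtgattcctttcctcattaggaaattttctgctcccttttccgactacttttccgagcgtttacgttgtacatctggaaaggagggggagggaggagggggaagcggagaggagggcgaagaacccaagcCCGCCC

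The Cxcr4 window held 3 GC boxes, the Itga5 window 2 and the Cd44 window 0. The Cd44 window instead held 1 GATA motif, 233 to 228 bases before the start, and 3 ETS motifs. Among all 32841 promoters of this length the GC box was in 32.7%, the GATA motif in 9.99% and the ETS motif in 29.5%, while CCAAT was in 33.9% and the RUNX motif in 14.0%. The windows of Itga4 and Itgb1, which are not shown, held 1 GC box each, with 1 RUNX motif in Itga4 and 2 ETS motifs in Itgb1. GC content was 61.2% for Cxcr4, 56.4% for Cd44 and 55.6% for Itga5, against a median of 52.4% over all promoters. A match is a run of letters and not a shown binding site.

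All levels given from here on are FPKM after quantile normalization over the 29 libraries, and all differences are on the log2(FPKM + 1) scale. Marker sums, the medians of stromal genes and the level of Cxcl12 are FPKM as deposited. Means and SDs given for a whole population pool both genotypes, so the SD also holds any gap between genotypes. A population difference is the mean of the difference in WT and that in 5A3+/del mice. All 10 receptors were above 0 in every library. Averaged over all libraries, Cd44 was highest at 41.2 FPKM, followed by Itgb1 at 36.5, Selplg at 28.9, Cxcr4 at 26.7, Itga4 at 26.1, Itga6 at 19.5, Itga5 at 14.2, S1pr1 at 11.7, Itgb2 at 9.98 and Jam3 at 4.98. Cd44 lay above 94.0% of the 15409 genes tested and Jam3 above 45.3%. The ranges over libraries of all neighbours in this order overlapped. All 10 genes passed the filter on low values, and the fewest fragments behind any value were 78, for Jam3.

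The order of levels was not the same in the stem cells and in the progenitors. In CD150hi HSC, Itgb1 came first at 37.5 ± 7.41 FPKM (SD, n = 10), ahead of Cd44 at 30.2 ± 3.48, and the ranges of both overlapped. In CD150neg MPP, Cd44 came first at 49.9 ± 3.52 (SD, n = 9), ahead of Itgb1 at 36.2 ± 6.19, and there the lowest value of Cd44, 44.5, lay above the highest of Itgb1, 42.9. Itga5 stood at 19.8 ± 3.81 (SD, n = 10) in CD150hi HSC, above S1pr1 at 12.4 ± 7.40 and Itgb2 at 7.83 ± 3.05. In CD150neg MPP it stood at 10.3 ± 2.95 (SD, n = 9), beside S1pr1 at 10.7 ± 2.20 and Itgb2 at 10.7 ± 2.46, and those 3 did not differ beyond their spread.

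**Figure D1:**
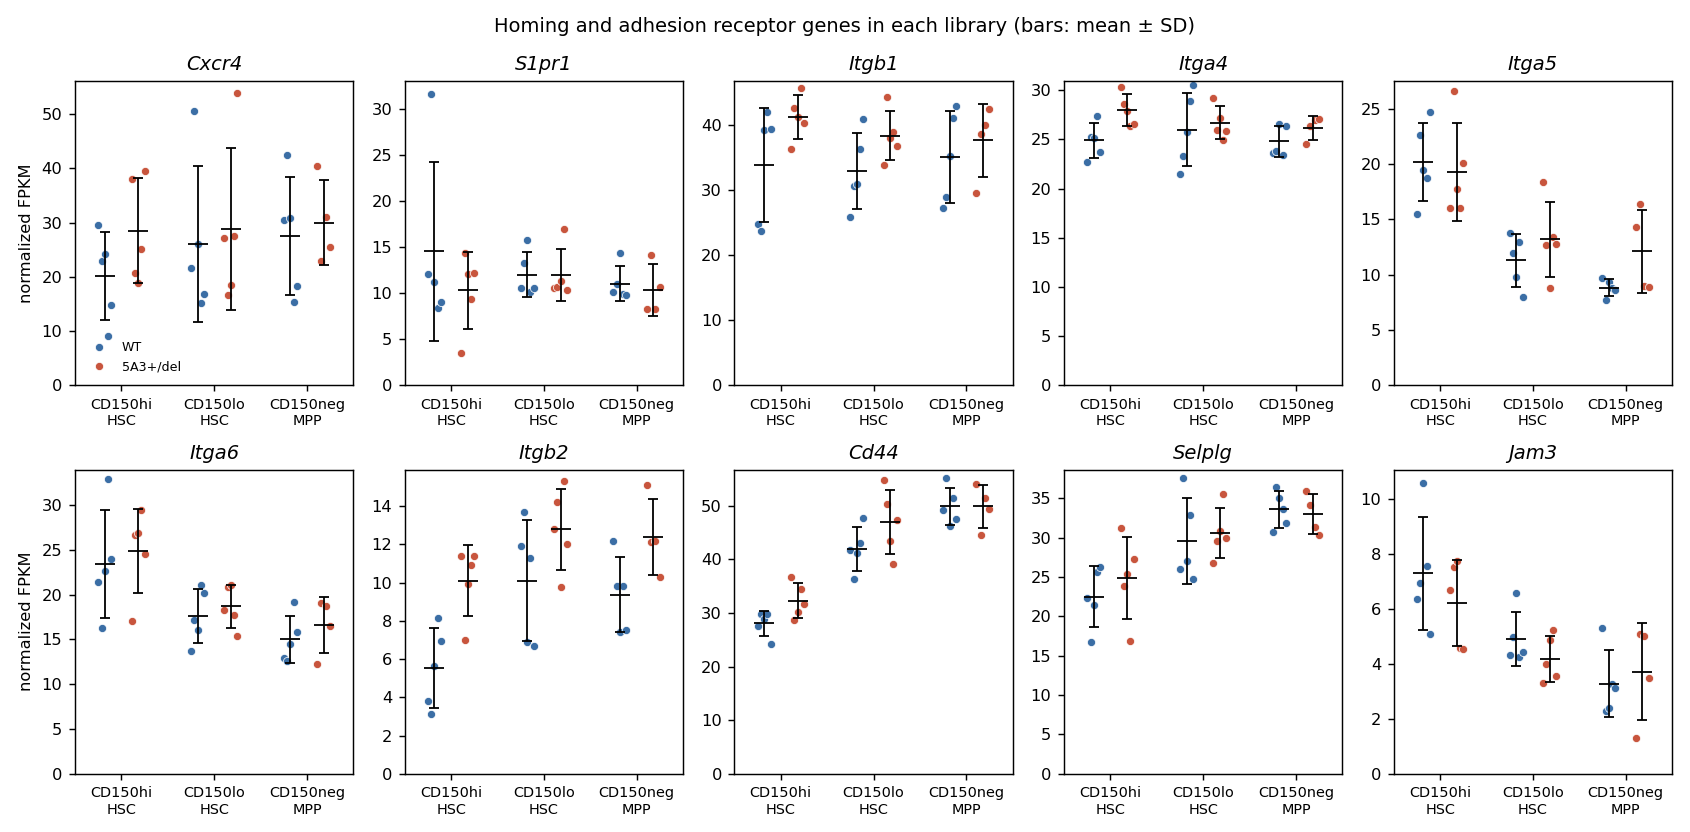
Normalized FPKM of the 10 receptors in each of the 29 libraries, by population and genotype; points are libraries and bars the mean ± SD. Cd44 runs from 24.3 to 36.7 in CD150hi HSC and from 44.5 to 55.2 in CD150neg MPP, while Itga4 stays between 21.5 and 30.5 in all libraries.

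Of the chemoattractant receptors, Cxcr4 (chromosome 1, 130484776 to 130488870, minus strand, mm9) was spread widely within every group. In CD150hi HSC its level was 29.6, 22.9, 24.2, 9.03 and 14.7 FPKM in WT mice 1 to 5 and 38.1, 20.7, 18.8, 25.2 and 39.5 in 5A3+/del mice 1 to 5. In CD150lo HSC it was 21.6, 50.7, 26.1, 15.2 and 16.8 in WT mice and 27.1, 16.6, 18.5, 27.6 and 53.9 in 5A3+/del mice. In CD150neg MPP it was 30.5, 42.5, 30.8, 15.4 and 18.3 in WT mice and 40.5, 22.9, 31.0 and 25.4 in 5A3+/del mice 1 to 4. WT mouse 4 was the lowest of its group in all 3 populations, and all groups overlapped. The libraries ran from 9.03 to 53.9, a ratio of 5.98. The population means of 24.3, 27.4 and 28.6 FPKM in CD150hi HSC, CD150lo HSC and CD150neg MPP lay well within this spread, and CD150hi HSC minus CD150neg MPP was -0.28 ± 0.25 (SE; 95% interval -0.80 to 0.25; limma adjusted p = 0.558). Within mice the direction was nonetheless shared: Cxcr4 was lower in CD150hi HSC than in CD150neg MPP in all 9 mice with both libraries. With the mouse as a fixed term, an alternative chosen after seeing the data, the same comparison gave -0.37 ± 0.13 (SE) with a limma adjusted p of 0.0649, which also missed the threshold of 0.05.

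S1pr1 (chromosome 3, 115413351 to 115417973, minus strand) showed no population difference that passed the test. Its mean was 12.4 ± 7.40 FPKM in CD150hi HSC (SD, n = 10), 11.9 ± 2.46 in CD150lo HSC (SD, n = 10) and 10.7 ± 2.20 in CD150neg MPP (SD, n = 9). The wide spread in CD150hi HSC came from the library of WT mouse 2 at 31.6 and that of 5A3+/del mouse 1 at 3.51, with the other 8 libraries between 8.41 and 14.3. CD150hi HSC minus CD150neg MPP was 0.06 (95% interval -0.37 to 0.49; limma adjusted p = 0.909), and the sign turned to -0.10 without WT mouse 2 and to -0.03 without 5A3+/del mouse 3.

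Itgb1 encodes the beta subunit that Itga4, Itga5 and Itga6 share, and the pairs differed in what moved: Itgb1 and Itga4 showed no population difference, while Itga5 and Itga6 were higher in CD150hi HSC. Itgb1 (chromosome 8, 131209554 to 131257100, plus strand) was at 37.5 ± 7.41 FPKM in CD150hi HSC, 35.7 ± 5.46 in CD150lo HSC (SD, n = 10 each) and 36.2 ± 6.19 in CD150neg MPP (SD, n = 9). Between CD150hi HSC and CD150neg MPP its difference was 0.03 (95% interval -0.21 to 0.28; limma adjusted p = 0.905), with a sign that turned to -0.01 under median scaling. Itga4 (chromosome 2, 79095583 to 79173280, plus strand), whose product binds Vcam1 protein and fibronectin, was the steadiest of the 10 genes. It ran from 21.5 to 30.5 FPKM over all libraries, a ratio of 1.42, and its means were 26.4 ± 2.28 for CD150hi HSC, 26.3 ± 2.76 for CD150lo HSC (SD, n = 10 each) and 25.4 ± 1.56 for CD150neg MPP (SD, n = 9). CD150hi HSC minus CD150neg MPP was 0.05 (95% interval -0.10 to 0.19; limma adjusted p = 0.748).

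Itga5 (chromosome 15, 103174720 to 103197194, minus strand) encodes the alpha subunit of the main fibronectin receptor. In CD150hi HSC its level was 15.5, 22.7, 19.5, 18.8 and 24.7 FPKM in WT mice 1 to 5 and 16.0, 26.6, 17.8, 16.0 and 20.1 in 5A3+/del mice 1 to 5. In CD150lo HSC it was 13.8, 12.0, 9.80, 13.0 and 8.02 in WT mice and 18.4, 12.7, 8.75, 13.4 and 12.8 in 5A3+/del mice. In CD150neg MPP it was 9.72, 7.67, 9.35, 8.77 and 8.63 in WT mice and 14.3, 16.4, 9.00 and 8.86 in 5A3+/del mice 1 to 4. In WT mice no CD150hi library overlapped either of the other populations, while in 5A3+/del mice the groups overlapped through single libraries. Itga5 was higher in CD150hi HSC than in CD150neg MPP by 0.87 ± 0.14 (SE; 95% interval 0.60 to 1.15; limma adjusted p = 2.9e-05), in 9 of 9 mice, a ratio of means of 1.92. Against CD150lo HSC it was higher by 0.66 ± 0.13 (SE; limma adjusted p = 0.00124), in 9 of 10 mice.

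Itga6 (chromosome 2, 71583673 to 71696473, plus strand), the alpha subunit of laminin receptors, followed the same direction with a smaller difference. In CD150hi HSC its level was 21.4, 16.3, 22.6, 32.9 and 24 FPKM in WT mice and 17.1, 26.6, 26.9, 29.4 and 24.5 in 5A3+/del mice. CD150lo HSC had 13.7, 17.2, 16.1, 21.1 and 20.2 in WT mice and 18.3, 20.8, 21.1, 17.7 and 15.4 in 5A3+/del mice. CD150neg MPP had 12.9, 12.6, 14.5, 19.2 and 15.8 in WT mice and 12.2, 19.1, 18.7 and 16.5 in 5A3+/del mice. The populations overlapped between mice, while within each of the 9 mice with both libraries CD150hi HSC was higher than CD150neg MPP. The difference of CD150hi HSC from CD150neg MPP was 0.57 ± 0.12 (SE; limma adjusted p = 0.00163). CD150hi HSC minus CD150lo HSC was 0.38 ± 0.12 (SE; limma adjusted p = 0.0529) and higher in 8 of 10 mice. It passed the threshold with libraries of 1 mouse treated as a block (limma adjusted p = 0.0304).

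Itgb2 (chromosome 10, 76992997 to 77028453, plus strand), the beta subunit of the leukocyte integrins, went the other way and was lowest in CD150hi HSC. There its level was 3.82, 3.15, 5.66, 8.17 and 6.92 FPKM in WT mice and 11.4, 6.98, 9.91, 10.9 and 11.4 in 5A3+/del mice. In CD150lo HSC it was 11.9, 13.7, 6.90, 11.3 and 6.68 in WT mice and 12.8, 14.2, 9.79, 15.3 and 12.0 in 5A3+/del mice. In CD150neg MPP it was 12.2, 9.83, 7.43, 9.83 and 7.54 in WT mice and 15.1, 12.1, 12.2 and 10.3 in 5A3+/del mice. The lowest values were those of WT mice 1, 2 and 3 in CD150hi HSC, and the populations overlapped. CD150hi HSC minus CD150neg MPP was -0.49 ± 0.15 (SE; limma adjusted p = 0.0298), lower in 8 of 9 mice. CD150hi HSC minus CD150lo HSC was -0.55 ± 0.15 (SE; limma adjusted p = 0.0187), lower in 8 of 10 mice. Both calls depended on single animals: the first was lost without WT mouse 1 or 2 or without 5A3+/del mouse 1, 2 or 3, with adjusted p from 0.0655 to 0.107, and the second without WT mouse 1 or 2 or 5A3+/del mouse 2, with adjusted p from 0.0716 to 0.0907.

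Cd44 (chromosome 2, 102651298 to 102741822, minus strand) had the smallest adjusted p-value of the 10 receptors in both comparisons with CD150hi HSC. In CD150hi HSC its level was 27.5, 29.8, 28.9, 29.9 and 24.3 FPKM in WT mice and 36.7, 28.7, 30.1, 34.4 and 31.6 in 5A3+/del mice. CD150lo HSC had 41.7, 36.4, 41.2, 43.0 and 47.7 in WT mice and 54.8, 50.4, 43.5, 39.1 and 47.3 in 5A3+/del mice. CD150neg MPP had 49.3, 55.2, 46.2, 51.5 and 47.6 in WT mice and 54.0, 44.5, 51.5 and 49.5 in 5A3+/del mice. Every CD150hi library lay below every CD150neg library, and CD150hi and CD150lo libraries overlapped by 1 pair, 36.7 in 5A3+/del mouse 1 against 36.4 in WT mouse 2. The difference of CD150hi HSC from CD150neg MPP was -0.71 ± 0.08 (SE; 95% interval -0.87 to -0.56; limma adjusted p = 6.93e-08), a ratio of means of 0.605 and lower in 9 of 9 mice. CD150hi HSC minus CD150lo HSC was -0.54 ± 0.07 (SE; limma adjusted p = 7.59e-06), lower in 10 of 10 mice. CD150lo HSC and CD150neg MPP lay closer, at -0.17 ± 0.08 (SE; limma adjusted p = 0.565).

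Selplg (chromosome 5, 114267807 to 114280510, minus strand), the mucin that binds P-, E- and L-selectin, lies on the chromosome with the deletion but far outside the deleted interval. In CD150hi HSC its level was 22.3, 16.7, 21.4, 25.7 and 26.3 FPKM in WT mice and 31.2, 23.9, 25.4, 16.9 and 27.3 in 5A3+/del mice. In CD150lo HSC it was 26.0, 37.6, 27.1, 32.9 and 24.7 in WT mice and 26.8, 29.6, 30.8, 35.6 and 30.0 in 5A3+/del mice. In CD150neg MPP it was 30.7, 36.5, 35.0, 33.7 and 31.9 in WT mice and 36.0, 34.2, 31.4 and 30.4 in 5A3+/del mice. All CD150neg libraries were at 30.4 or above, and the single CD150hi library above that value was that of 5A3+/del mouse 1 at 31.2. CD150hi HSC minus CD150neg MPP was -0.49 ± 0.10 (SE; limma adjusted p = 0.0012), lower in 9 of 9 mice. CD150hi HSC minus CD150lo HSC was -0.34 ± 0.10 (SE; limma adjusted p = 0.0322), lower in 8 of 10 mice. The second call was lost without WT mouse 2, 3 or 4 or 5A3+/del mouse 2, 3 or 4, with adjusted p up to 0.137, and was 0.0647 without WT mouse 3.

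Jam3 (chromosome 9, 26904969 to 26963003, minus strand) was the lowest expressed of the receptors, and its mean was 6.76 ± 1.81 FPKM in CD150hi HSC, 4.54 ± 0.935 in CD150lo HSC (SD, n = 10 each) and 3.47 ± 1.41 in CD150neg MPP (SD, n = 9). In CD150hi HSC its level was 6.36, 6.93, 10.6, 7.57 and 5.07 FPKM in WT mice and 6.69, 7.53, 7.76, 4.59 and 4.54 in 5A3+/del mice. CD150lo HSC had 4.33, 4.96, 6.57, 4.24 and 4.43 in WT mice and 3.29, 3.98, 4.85, 5.22 and 3.56 in 5A3+/del mice. CD150neg MPP had 5.32, 2.29, 2.39, 3.27 and 3.11 in WT mice and 1.29, 5.08, 5.02 and 3.48 in 5A3+/del mice. WT mouse 3 had the highest value in both HSC populations, and neighbouring populations overlapped. The difference of CD150hi HSC from CD150neg MPP was 0.83 ± 0.17 (SE; limma adjusted p = 0.000781), higher in 9 of 9 mice, with a ratio of means of 1.95. CD150hi HSC minus CD150lo HSC was 0.47 ± 0.16 (SE; limma adjusted p = 0.0793), higher in 9 of 10 mice, and CD150lo HSC minus CD150neg MPP was 0.36 ± 0.17 (SE; limma adjusted p = 0.599).

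Set side by side, 6 of the 10 receptors passed the test between CD150hi HSC and CD150neg MPP, 3 higher in CD150hi HSC (Itga5, Jam3 and Itga6) and 3 lower (Cd44, Selplg and Itgb2). Of all 15409 genes tested, 13.2% passed in this comparison, 6.99% higher and 6.20% lower. Between CD150hi and CD150lo HSC 4 receptors passed, Itga5 higher and Cd44, Itgb2 and Selplg lower, beside 7.64% of all genes (4.23% higher and 3.41% lower). Between CD150lo HSC and CD150neg MPP 0 receptors passed in limma, with 2 at an unadjusted p under 0.05 (Cd44 and Jam3) and 0 by voom, beside 0.292% of all genes (0.175% higher and 0.117% lower). The first pair of comparisons share their CD150hi libraries and are not independent. The median difference of the 10 receptors was 0.04 between CD150hi HSC and CD150neg MPP and that of all genes -0.01, so the receptors did not move one way. Without WT mouse 3, the mouse with Xist, all 6 receptors passed against CD150neg MPP, and 3 of the 4 passed against CD150lo HSC, Selplg being lost. Beside these differences, some markers of other cells also differed by population. The 6 endothelial genes summed to 38.8 to 54.0 FPKM in CD150hi HSC and to 31.9 to 49.1 in CD150neg MPP, but not in 1 direction. Vwf (2.15), Tie1 (0.64) and Kdr (0.64) passed as higher and Pecam1 (-0.37) as lower, while Cdh5 and Emcn did not pass. The 6 stromal genes summed to 0.8 to 2.75 and 2.5 to 5.1. Most of that was Pdgfrb, at 1.05 ± 0.608 and 3.45 ± 0.656 (-1.15; limma adjusted p = 2.56e-06), and the other stromal genes had medians of at most 0.213 FPKM. The NK cell gene Klrb1c was at 2.96 ± 1.44 in CD150hi HSC and 0.552 ± 0.670 in CD150neg MPP (1.36; limma adjusted p = 2.46e-05). Cd4, of the same list, went the other way (-0.81; limma adjusted p = 0.011). The granulocyte gene Mpo was at 2.34 ± 6.42 and 4.2 ± 2.29 (-1.50; limma adjusted p = 0.0298). In its list Elane and Csf1r were also below 0, while S100a8, S100a9, Camp, Ltf and Lyz2 were above 0, and none of these passed. Neither list moved one way. The part of all these markers in the results was not tested.

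**Figure D2:**
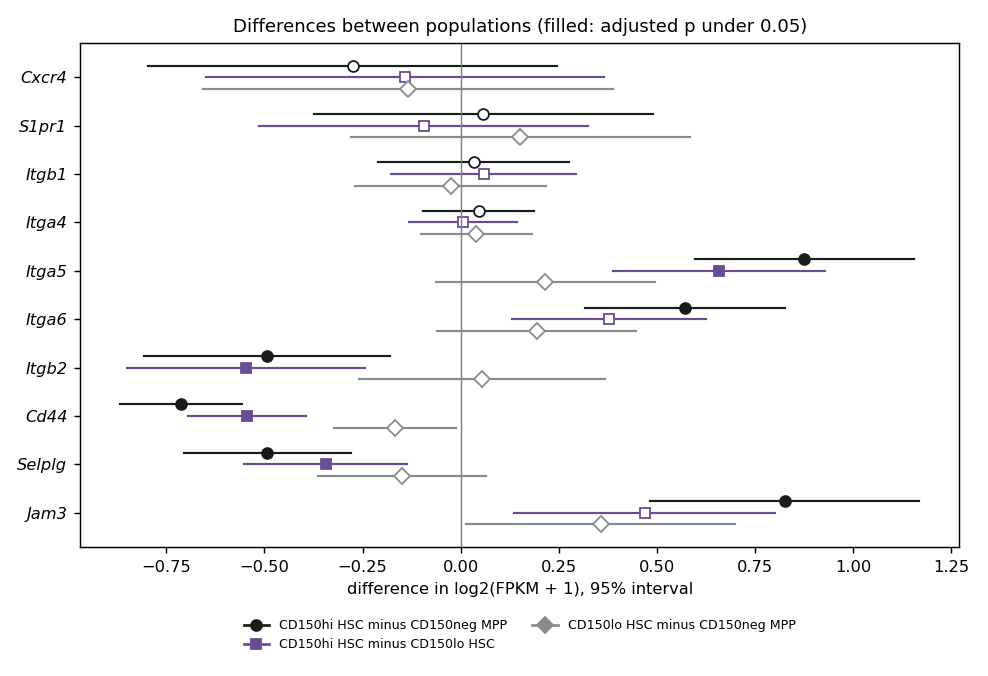
Difference in log2(FPKM + 1) of each receptor between CD150hi HSC and CD150lo HSC, CD150lo HSC and CD150neg MPP, and CD150hi HSC and CD150neg MPP, with 95% intervals; filled symbols passed an adjusted p of 0.05 in limma. Itga5, Jam3 and Itga6 lie to the right of 0 and Cd44, Selplg and Itgb2 to the left for CD150hi HSC minus CD150neg MPP.

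Within each genotype the receptors that passed kept their signs. For CD150hi HSC minus CD150neg MPP, Itga5 was at 1.1 ± 0.19 in WT and 0.65 ± 0.20 in 5A3+/del mice, Jam3 at 0.97 ± 0.23 and 0.69 ± 0.24, and Itga6 at 0.59 ± 0.17 and 0.55 ± 0.18 (SE). Cd44 was at -0.81 ± 0.10 in WT and -0.61 ± 0.11 in 5A3+/del mice, Selplg at -0.57 ± 0.14 and -0.42 ± 0.15, and Itgb2 at -0.71 ± 0.21 and -0.28 ± 0.22 (SE). All 6 were smaller in size in 5A3+/del mice. The difference between the genotypes was tested as an interaction, and 0 of the 10 receptors passed it, with 0 at an unadjusted p under 0.05 and 0 by voom. Over all genes 0 (0%) passed in limma and 7.96% had an unadjusted p under 0.05. For Itga5 the interaction was -0.45 (95% interval -1.01 to 0.11; limma adjusted p = 0.704) and for Itgb2 it was 0.42 (95% interval -0.20 to 1.05; limma adjusted p = 0.769). For CD150hi against CD150lo HSC the interaction also gave 0 receptors, 0 at an unadjusted p under 0.05 and 0 by voom, beside 0% of all genes and 3.98% at an unadjusted p under 0.05.

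Genes that work with these receptors were grouped in 6 lists. Between CD150hi HSC and CD150neg MPP, 13.2% of all genes passed, 6.99% higher and 6.20% lower. Among the other integrin subunits, 10 of 21 passed the filter, and against CD150neg MPP 2 were higher and 6 lower in CD150hi HSC, with a median of -0.71. Itgb5, a partner of the alpha v subunit, was at 0.870 ± 0.417 FPKM in CD150hi HSC (SD, n = 10) and 7.13 ± 1.96 in CD150neg MPP (SD, n = 9), a difference of -2.13 ± 0.17 (SE; limma adjusted p = 2.06e-10). The partners of Itgb2 fell with it: Itgal was at 0.564 ± 0.465 and 4.26 ± 1.1 (-1.78; limma adjusted p = 6.27e-09) and Itgam at 2.59 ± 2.18 and 10.6 ± 3.35 (-1.82; limma adjusted p = 2.63e-07), both lower in 9 of 9 mice. The antibody to CD11b, the product of Itgam, was not in the lineage cocktail. Itgb3 and Itga2b pair with each other and were picked after their values were seen, as the 2 subunits that passed the test as higher. They were at 11.0 ± 5.86 against 2.03 ± 1.33 (1.98; limma adjusted p = 4.81e-06) and at 3.22 ± 1.91 against 1.70 ± 0.539 (0.58; limma adjusted p = 0.0159). CD41, the Itga2b product, was part of the gate, and its call was lost without WT mouse 4, WT mouse 5 or 5A3+/del mouse 4.

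Among the cytoplasmic partners, more of the genes that passed were lower than higher in CD150hi HSC. Of all genes, 6.99% passed as higher and 6.20% as lower against CD150neg MPP. Of 20 tested genes of integrin activation and linkage to actin, 2 were higher and 5 lower in CD150hi HSC than in CD150neg MPP (median -0.05), among them the parvin Parvg at 34.3 ± 6.23 against 56.9 ± 8.05 FPKM (-0.74; limma adjusted p = 3.29e-07), the focal adhesion protein Zyx at 60.8 ± 6.90 against 86.9 ± 10.9 (-0.51; limma adjusted p = 4.23e-05) and the adaptor Fyb at 11.1 ± 2.91 against 19.8 ± 3.46 (-0.81; limma adjusted p = 0.000107). Of 16 tested genes of chemokine and lipid receptor signalling, 0 were higher and 6 lower (median -0.15). They include Rgs1 and Rgs2, regulators that shorten G protein signals, at 59.3 ± 12.1 against 109 ± 25.0 (-0.85; limma adjusted p = 7.92e-05) and 34.5 ± 13.4 against 76.7 ± 20.6 (-1.17; limma adjusted p = 8.43e-05), and the sphingosine 1-phosphate lyase Sgpl1 at 4.62 ± 1.24 against 8.41 ± 1.24 (-0.75; limma adjusted p = 1.28e-05).

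Selectin and junction genes moved in both directions, beside 6.99% of all genes higher and 6.20% lower in CD150hi HSC than in CD150neg MPP. Of 15 tested selectins and genes of selectin-ligand synthesis, 2 were higher and 3 lower in CD150hi HSC than in CD150neg MPP (median 0.00). The sialomucin Cd34, known to be low on the most primitive mouse stem cells, was at 41.9 ± 12.7 against 170 ± 16.4 FPKM (-2.06; limma adjusted p = 6.42e-13), the fucosyltransferase Fut7, which builds the selectin-binding sugar, at 1.87 ± 0.670 against 5.94 ± 1.12 (-1.30; limma adjusted p = 3.14e-07) and Podxl, a relative of Cd34, at 2.91 ± 1.35 against 0.572 ± 0.480 (1.31; limma adjusted p = 4.05e-07). Thus Selplg and the enzyme Fut7 were both lower in CD150hi HSC. Gcnt1, another enzyme of this list, went the other way, at 17.4 ± 6.1 against 9.55 ± 1.47 (0.76; limma adjusted p = 0.000149). Fut4, St3gal4, St3gal6, Tpst1, Tpst2 and B4galt1 did not pass. Of 18 tested junction, immunoglobulin family and tetraspanin genes, 8 were higher and 6 lower (median 0.18). The tetraspanins Cd53, at 7.22 ± 3.19 against 62 ± 12.3 (-3.04; limma adjusted p = 1.3e-13), and Cd37, at 12.0 ± 3.20 against 28.9 ± 3.09 (-1.23; limma adjusted p = 1.33e-09), were lower, and the endothelial cell adhesion molecule Esam, at 19.7 ± 4.19 against 8.19 ± 1.41 (1.16; limma adjusted p = 5.33e-09), was higher.

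Of the 15 niche ligands of these receptors, 7 passed the filter. Against CD150neg MPP 1 was higher and 1 lower in CD150hi HSC, beside 6.99% and 6.20% of all genes. Jam2, the binding partner of Jam3, was at 4.12 ± 1.66 FPKM in CD150hi HSC and 1.18 ± 0.250 in CD150neg MPP (1.15; limma adjusted p = 1.89e-07), so that both sides of this contact were higher in the same population. Spp1, which encodes osteopontin, was at 0.751 ± 0.356 against 2.19 ± 1.01 (-0.86; limma adjusted p = 0.00115). The Cxcr4 ligand Cxcl12 stayed at or below 0.665 FPKM in every library. Between CD150lo HSC and CD150neg MPP only Esam (0.48; limma adjusted p = 0.0457) and Vcam1 (1.62; limma adjusted p = 0.0279) passed among these 6 lists, beside 0.292% of all genes. The Esam call was lost without any 1 of the 5 WT mice or of 5A3+/del mice 3, 4 and 5, with adjusted p from 0.0624 to 0.152, and the Vcam1 call without WT mouse 3, 4 or 5 or 5A3+/del mouse 2, 3 or 4, with adjusted p from 0.068 to 0.122. Both were lost by voom.

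Between CD150hi and CD150lo HSC, where 7.64% of all genes passed (4.23% higher and 3.41% lower), the lists gave 7 of 10 integrin subunits (1 higher and 6 lower), 5 of 20 genes of integrin activation (3 and 2), 4 of 16 of chemokine and lipid signalling (0 and 4), 5 of 15 of selectins (2 and 3), 9 of 18 of junctions (7 and 2) and 2 of 7 niche ligands (2 and 0). Itgb5 again had the smallest adjusted p of the integrin list, at 0.870 ± 0.417 against 5.38 ± 1.89 FPKM (-1.75; limma adjusted p = 1.12e-08). In the activation list the focal adhesion kinase Ptk2 was higher in CD150hi HSC, at 4.86 ± 2.03 against 2.33 ± 0.391 (0.74; limma adjusted p = 0.00281). The integrin count dropped to 4 without WT mouse 4, the junction count to 5 without WT mouse 3, 4 or 5, and the niche count to 1 without WT mouse 1, 2 or 3 or 5A3+/del mouse 1, 2 or 3.

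**Figure D3:**
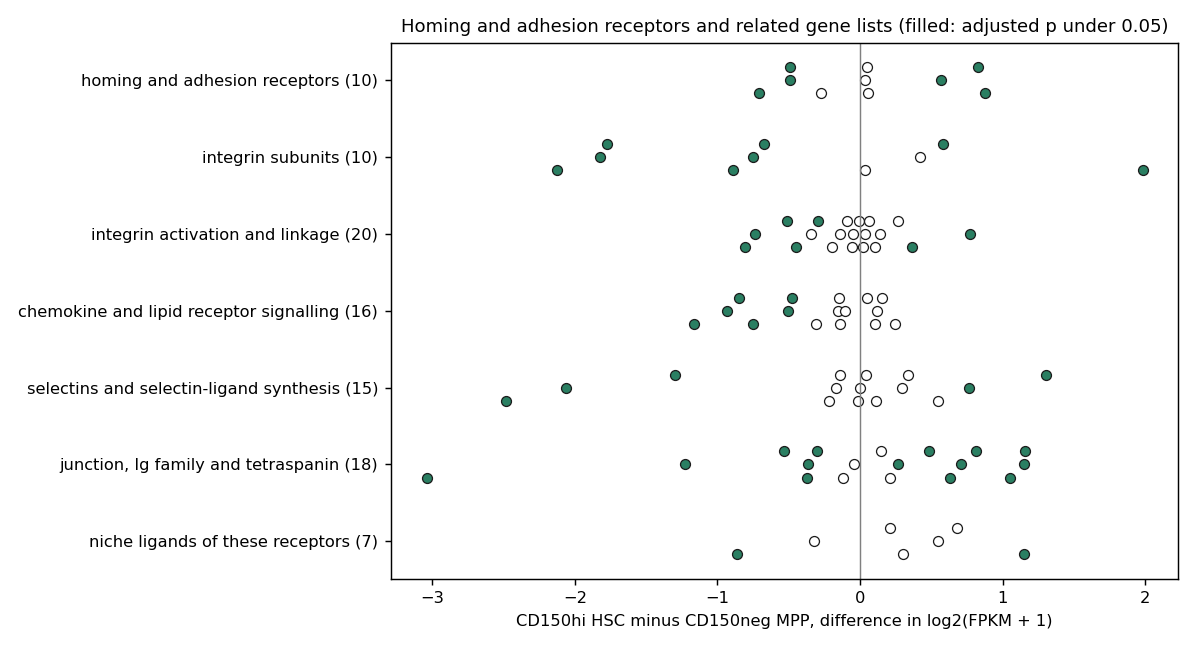
Difference in log2(FPKM + 1) between CD150hi HSC and CD150neg MPP for the 10 receptors and for the tested genes of the 6 related lists, with the number of genes in brackets; each point is a gene and filled points passed an adjusted p of 0.05 in limma. The filled points of the chemokine and lipid list all lie to the left of 0, while those of the junction list lie on both sides.

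Between the genotypes, 0 of the 10 receptors passed the test in any of the 3 populations. Itgb2 came nearest. In CD150hi HSC, the values given above ran from 3.15 to 8.17 FPKM in WT mice and from 6.98 to 11.4 in 5A3+/del mice, and only 5A3+/del mouse 2 lay within the WT range. The means were 5.54 ± 2.09 in WT and 10.1 ± 1.85 in 5A3+/del mice (SD, n = 5 each), a difference of 0.81 ± 0.21 (SE; 95% interval 0.38 to 1.24) with an unadjusted p of 0.000653 in limma. The limma adjusted p was 0.0894, with 0.0599 to 0.385 under the other settings and 0.0895 to 0.202 when 1 mouse was left out. Age as a covariate was among these settings. Age was uneven between the genotypes: WT mice 1, 2 and 3, aged 13.28 weeks, were at 3.82, 3.15 and 5.66 FPKM. Of the 5A3+/del mice only mouse 1 had this age, and it was at 11.4. In CD150lo HSC Itgb2 differed by 0.35 and in CD150neg MPP by 0.38, in the same direction, with limma adjusted p of 0.84 and 1. Mature myeloid cells also carry Itgb2, and the lineage antibodies of the sort included Gr-1, which marks granulocytes. Their markers, 8 granulocyte and monocyte genes, summed in CD150hi HSC to 255 to 994 FPKM in WT and to 200 to 305 in 5A3+/del libraries. They summed to 177 to 1570 and 206 to 551 in CD150lo HSC and to 210 to 253 and 178 to 475 in CD150neg MPP, and their part in the result was not tested.

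In CD150hi HSC 1 receptor, Itgb2, had an unadjusted p under 0.05, where 13.1% of all genes did, and 0.156% of all genes passed the adjusted threshold. Libraries of the genotypes did not overlap for 0 receptors and for 2.58% of genes. In CD150lo HSC, 0 receptors passed in limma, 0 had an unadjusted p under 0.05 and 0 did not overlap, beside 0.0324%, 6.87% and 1.63% of all genes. In CD150neg MPP these counts were 0, 0 and 0, beside 0.0454%, 4.27% and 1.51%. Voom also called 0 receptors in each population. From CD150hi HSC to CD150lo HSC to CD150neg MPP, the receptors had a median genotype difference of 0.15, 0.12 and 0.10, and all genes one of 0.004, 0.011 and -0.001.

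The other receptors of CD150hi HSC differed by less between genotypes, relative to their spread. Cxcr4 was at 20.1 ± 8.16 FPKM in WT and 28.5 ± 9.72 in 5A3+/del mice (SD, n = 5 each), a difference of 0.52 with a 95% interval of -0.19 to 1.24 and a limma adjusted p of 0.543. Itgb1 differed by 0.31 (95% interval -0.02 to 0.65; limma adjusted p = 0.416), Cd44 by 0.19 (95% interval -0.02 to 0.41; limma adjusted p = 0.433) and Itga4 by 0.16 (95% interval -0.03 to 0.36; limma adjusted p = 0.476). S1pr1 was lower by 0.40 on average, at -0.40 (95% interval -0.99 to 0.19; limma adjusted p = 0.592), and this shrank to -0.09 without WT mouse 2 and to -0.10 without 5A3+/del mouse 1. In CD150neg MPP, Itga5 was at 8.83 ± 0.784 FPKM in WT (SD, n = 5) and 12.1 ± 3.78 in 5A3+/del mice (SD, n = 4), with 5A3+/del mice 1 and 2 at 14.3 and 16.4 and mice 3 and 4 at 9.00 and 8.86. That difference was 0.38 (95% interval -0.03 to 0.78; limma adjusted p = 1). Apart from that of Itgb2 in CD150hi HSC, the 95% intervals of the genotype differences of all receptors held 0 in the 3 populations. In the 6 related lists 0 genes passed between genotypes in limma in each population. In CD150hi HSC, where 13.1% of all genes had an unadjusted p under 0.05, so did 5 of 15 selectin genes, 4 of 20 activation genes, 4 of 18 junction genes, 3 of 7 niche ligands, 2 of 10 integrin subunits and 1 of 16 genes of chemokine and lipid signalling, and voom called 1 gene, Jam2, which is in both the junction and the niche list. Jam2 was at 2.79 ± 0.984 FPKM in WT mice and at 5.45 ± 0.900 in 5A3+/del mice (SD, n = 5 each), with no overlap between these CD150hi libraries. It is named after its values were seen: its difference was 0.80 ± 0.18 (SE), with a limma adjusted p of 0.0519. That p ran from 0.0236 by voom to 0.337 with only the groups compared, and from 0.0326 to 0.15 when 1 mouse was left out, passing without WT mouse 3. It was 0.0498 with the replicate block, 0.046 with no filter and 0.046 with the variance trend. Among the lists in this population, the junction genes gave 2 calls under the variance trend and the selectin genes 1 without WT mouse 5. In CD150lo HSC the Jam2 difference was 0.09 (limma adjusted p = 0.985) and in CD150neg MPP 0.20 (limma adjusted p = 1). Jam3 itself was at 7.30 ± 2.05 in the WT libraries and at 6.22 ± 1.56 in the 5A3+/del libraries of this population.

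**Figure D4:**
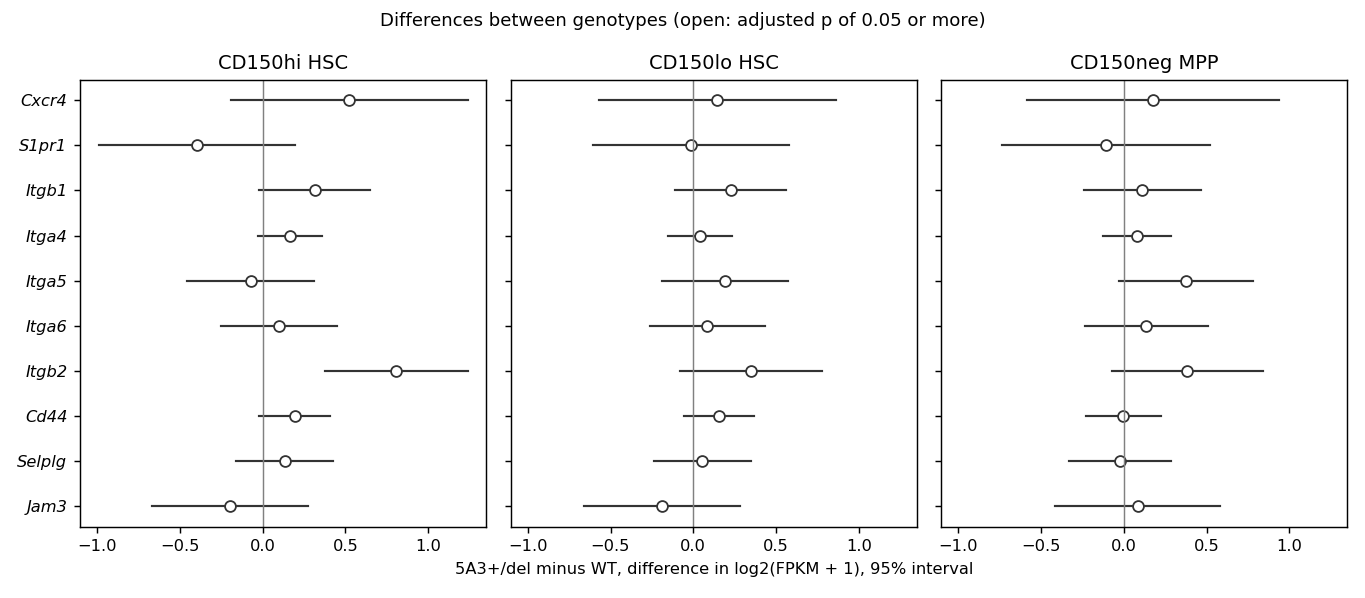
Difference in log2(FPKM + 1) between 5A3+/del and WT mice for the 10 receptors in CD150hi HSC, CD150lo HSC and CD150neg MPP, with 95% intervals; open symbols did not pass an adjusted p of 0.05 in limma. All symbols are open, and the interval of Itgb2 in CD150hi HSC, 0.38 to 1.24, is the farthest from 0.

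Some receptors kept the level of their mouse across the populations. After removal of the group means, libraries of the same mouse correlated at 0.823 for Itgb1, 0.703 for Cxcr4 and 0.649 for Itga6 over 28 pairs, which share animals and are given as a description. The same measure was 0.225 for S1pr1, 0.182 for Itga4, 0.085 for Itga5 and Jam3, -0.01 for Cd44, -0.15 for Itgb2 and -0.27 for Selplg. For Cxcr4, WT mouse 4 lay 0.76 below and 5A3+/del mouse 5 lay 0.77 above the means of their groups on the log2 scale. For Itgb1 the extremes were both WT, mouse 1 at -0.35 and mouse 5 at 0.29, and for Itga6 they were 5A3+/del mouse 1 at -0.30 and WT mouse 4 at 0.37. Thus the mouse with the lowest Cxcr4 had the highest Itga6. In every population, Itgb1 was lower in WT mice 1, 2 and 3 and 5A3+/del mouse 1, all aged 13.28 weeks, than in any other mouse. In CD150hi HSC they reached 39.3 FPKM and the others began at 39.4. In CD150lo HSC these bounds were 33.9 and 36.4, and in CD150neg MPP 35.3 and 38.6. For Itga6 the same split held in CD150hi HSC and CD150neg MPP but not in CD150lo HSC. The oldest animal, 5A3+/del mouse 2, was not among the lower ones. The part of age was not tested.

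**Figure D5:**
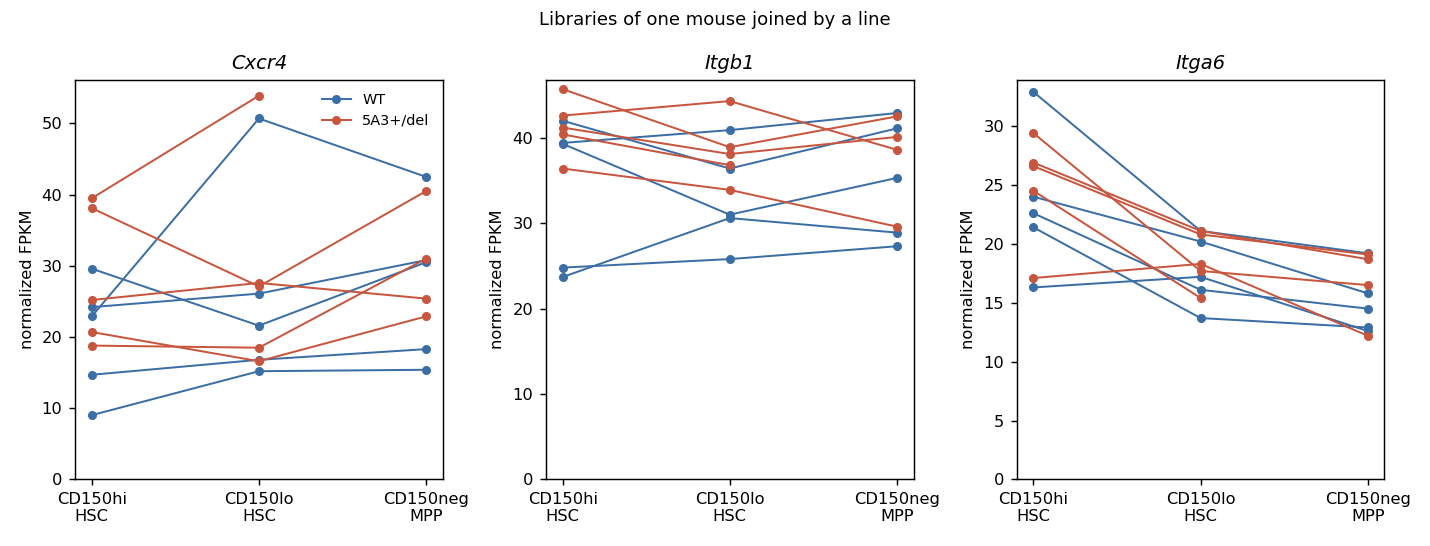
Normalized FPKM of Cxcr4, Itgb1 and Itga6 in the 3 populations of each mouse, with the libraries of 1 mouse joined by a line. For Itga6 the lines end lower in CD150neg MPP than in CD150hi HSC in all 9 mice with both libraries, and for Cxcr4 the lines of single mice lie apart, WT mouse 4 at 9.03 to 15.4.

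Over the 29 libraries, Cd44 and Itga5 ran in opposite directions (Pearson r = -0.758), Selplg ran with Itgb2 (r = 0.628), Itga6 ran with Itgb1 (r = 0.601) and Cxcr4 ran against Itga6 (r = -0.556). These correlations describe libraries that share populations and mice. Of all tested genes, the closest to Cd44 was the proteoglycan gene Sdc1 (r = 0.937, and 0.677 once group means were removed), the closest to Itga6 was Cpd (0.878 and 0.777) and the closest to Itga5 was Nupr1 (0.850 and 0.475). For Itgb1 it was Ehd4 (0.816 and 0.772), for Cxcr4 it was Fkbp5, a target of glucocorticoid receptors (0.812 and 0.839), and for Selplg it was the transcription factor gene Nfatc1 (0.804 and 0.679). For S1pr1 it was the histone gene Hist2h2be (0.773 and 0.810), for Jam3 it was 1110020G09Rik (0.762 and 0.478), for Itgb2 it was Ldoc1l (0.760 and 0.683) and for Itga4 it was Thumpd1 (0.746 and 0.713). The likeness of Cxcr4 to Fkbp5 and of S1pr1 to Hist2h2be was thus among libraries of the same group, while that of Itga5 to Nupr1 and of Jam3 to 1110020G09Rik fell by more once group means were removed.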

How the data were processed

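Per the labels, RNA of the sorted populations of 5 mice per genotype was amplified and sequenced in paired reads. The authors deposited FPKM values for 30025 genes in 29 libraries, with no quantile normalization. Per the submitters' processing notes, Bowtie 0.12.2 and HTSeq were used with mm9. How FPKM was computed is not given in the sources used here. Gene positions came from the GENCODE annotation of mm9, which matched 97.52% of genes, and fragments per library were recovered from low values, of which 98.47 to 98.97% came out whole within 0.05.

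The filter on low values asked for 4 or more libraries with an FPKM of 1 or more, which 15409 genes met. Values were transformed to log2(FPKM + 1), a scale that understates changes of low genes, quantile normalized and fitted with limma 3.58.1 (R 4.3.3) as 6 group means with 23 residual degrees of freedom. P-values, two-sided, were Benjamini-Hochberg adjusted over all genes, with a threshold of 0.05. The fit was also run on simulated data with independent libraries. As these held no mouse effect, they could not check p-values between populations of the same mouse. Mouse numbers pair libraries that share an identifier in their sample descriptions, which was read as that of the animal. Deviations from group means correlated between libraries of the same mouse at -0.0418 to 0.235 (median 0.0786, 28 pairs) and of different mice at a median of -0.025. Libraries of a group correlated across genes at 0.868 to 0.964.

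Alternatives were a pseudocount of 0.1, no filter, median scaling, a variance trend, only the groups compared, a replicate block, age as a covariate and leaving out each mouse. Voom on recovered fragments and the mouse as a fixed term were chosen after seeing the data. The receptors and gene lists were chosen with earlier results of these data known, and 1 gene list and 1 marker list are not reported here. Besides the 10 receptors and Slamf1, the genes named were up to 3 per list and comparison with the smallest adjusted p under 0.05, the gene closest to each receptor by Pearson correlation, and markers given beside a result. Itgb3, Itga2b, Gcnt1, the enzymes named with it and the genotype values of Jam2 were added after their values were seen.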

Additional observations from a re-analysis of the deposited data

Results flagged for a closer look

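Within groups of 4 or 5 libraries, 3 of 60 combinations of receptor and group held a library set far from the others, where chance gives about 1 in 20, or 3. All of them were S1pr1. In WT CD150hi HSC it was at 31.6 FPKM in mouse 2, with the others between 8.41 and 12.1. In 5A3+/del CD150lo HSC it was at 16.9 in mouse 4, with the others between 10.3 and 11.3. In WT CD150neg MPP it was at 14.3 in mouse 3, with the others between 9.76 and 11.0. These are libraries of different mice. S1pr1 in WT mouse 2 was at 13.2 in CD150lo HSC and at 11.0 in CD150neg MPP, within the range of the other WT mice.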

How the results depend on the processing

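The 10 receptors gave 0 calls between genotypes and 0 between CD150lo HSC and CD150neg MPP under every alternative run. Against CD150neg MPP, 6 receptors passed in CD150hi HSC, with 5 to 6 when 1 mouse was left out and 5 with no filter, where Itgb2 was lost (limma adjusted p = 0.0525). Against CD150lo HSC 4 passed, with 2 to 5 when 1 mouse was left out and 2 without 5A3+/del mouse 2. In that comparison Itga6 was gained under median scaling (limma adjusted p = 0.0348), the variance trend (0.041), age as a covariate (0.0374), voom (0.0125) and both replicate blocks, at 0.0304 with the mouse as a random and 0.00589 as a fixed term. Jam3 was gained with only the groups compared (0.0287), and Selplg was lost there (0.0816) and with the mouse as a fixed term (0.0627). The replicate block changed no other call of the receptors. Of 80 combinations of a receptor and a comparison, 21 changed sign under at least 1 alternative, 15 of them between genotypes or in interactions. Of the 21, 0 had passed the test, and their differences were at most 0.293 in size. Among the population differences from CD150neg MPP that are printed, signs turned for Itgb1 between CD150hi HSC and CD150neg MPP under median scaling (-0.006), for S1pr1 there without WT mouse 2 (-0.096) or 5A3+/del mouse 3 (-0.028), with a range of -0.096 to 0.166, and for Itgb2 between CD150lo HSC and CD150neg MPP without 5A3+/del mouse 4 (-0.016), with a range of -0.016 to 0.097. The cause was not tested.

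Counts over all genes moved more. Between genotypes, the 24 genes of CD150hi HSC became 15 with a pseudocount of 0.1, 75 with no filter, 100 with a variance trend, 0 with only the groups compared, 56 with the replicate block, 77 by voom and 4 to 40 without 1 mouse. The 5 genes of CD150lo HSC became 8, 16, 31 and 0 under the first 4 of these, 8 with the replicate block and 3 to 74 without 1 mouse. The 7 genes of CD150neg MPP became 4 with no filter, 0 with only the groups compared and 3 to 8 without 1 mouse. Between CD150lo HSC and CD150neg MPP, 45 genes became 68 with the replicate block and 16 to 45 without 1 mouse. The interaction of CD150hi and CD150lo HSC went from 0 genes to 1 with no filter, and that of CD150hi HSC and CD150neg MPP to 2 with only the groups compared and 0 to 1 without 1 mouse.

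Jam3, with as few as 78 fragments in a library, had the largest counting error of the 10.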
